A study of Homo sapiens with 6 samples.

Results

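Store-operated calcium entry and the related TRPC channels were examined in MO3.13 cells through 8 genes: the store sensors STIM1 and STIM2, the pore subunits ORAI1, ORAI2 and ORAI3, and the TRPC subunits TRPC1, TRPC4 and TRPC6. The genes were chosen by name with earlier results of the same arrays known, so the differences given for them are descriptions first. Each of the 8 had 1 probe set annotated with it alone, and these are 8 of the 14232 genes that had such a probe set. MO3.13 is a human line that the submitters call oligodendroglioma, and the line is also known as a fusion of human oligodendrocytes with a rhabdomyosarcoma line. The 3 control arrays carried RNA of cells labelled control, medium with fetal bovine serum being the growth medium described. The 3 Klotho-treated arrays carried RNA of cells given recombinant mouse Klotho at 0.4 µg/mL in serum-free medium for 3.5 h. The labels do not say whether control cells were also moved to serum-free medium. Serum-free medium is named for the treated cells alone, so that Klotho and any change of medium cannot be told apart. The labels do not tell whether separate cultures lie behind the 3 arrays of each kind, so every p-value refers to the spread among arrays, which may be only technical.

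When the endoplasmic reticulum loses calcium, STIM proteins in its membrane sense the loss, cluster beneath the plasma membrane and open ORAI channels, which let calcium in and allow the store to refill. TRPC channels are non-selective cation channels opened downstream of phospholipase C, and TRPC1 has been described as joining STIM1 and ORAI1 in store-operated entry. Oligodendrocyte precursors and muscle cells both use this route. Klotho, a membrane and circulating co-receptor for FGF23, has been described as acting on TRPC1 in endothelium and as limiting TRPC6 in heart muscle, mostly at the level of the protein and its place in the membrane, which transcript arrays do not measure.

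The sensors, the ORAI subunits and TRPC1 gave clear signals, whereas TRPC4 and TRPC6 were dim. Mean signals over the 6 arrays lay at percentile 74.2 of all probe sets for STIM2, 69.8 for ORAI1, 64.5 for STIM1, 57.1 for ORAI2, 53.0 for TRPC1 and 47.5 for ORAI3. TRPC6 lay at percentile 11.2 and TRPC4 at percentile 7.16, below the lower quartile of 4.70 (log2). Probe sets differ in how brightly they report a transcript, so these positions do not rank the genes by abundance. No detection calls were used, and 220 genes of olfactory receptors, which are silent in most cells, served to show the range of dim signals; this set was added after the data were examined. Their mean signals ran from 1.64 to 5.95 with a median of 3.32. None of the 220 was as bright as STIM1, STIM2, ORAI1, ORAI2, ORAI3 or TRPC1, while 110 were at or above TRPC6 and 157 at or above TRPC4. A difference between groups in TRPC4 or TRPC6 signal need not be one in transcript.

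**Figure D1:**
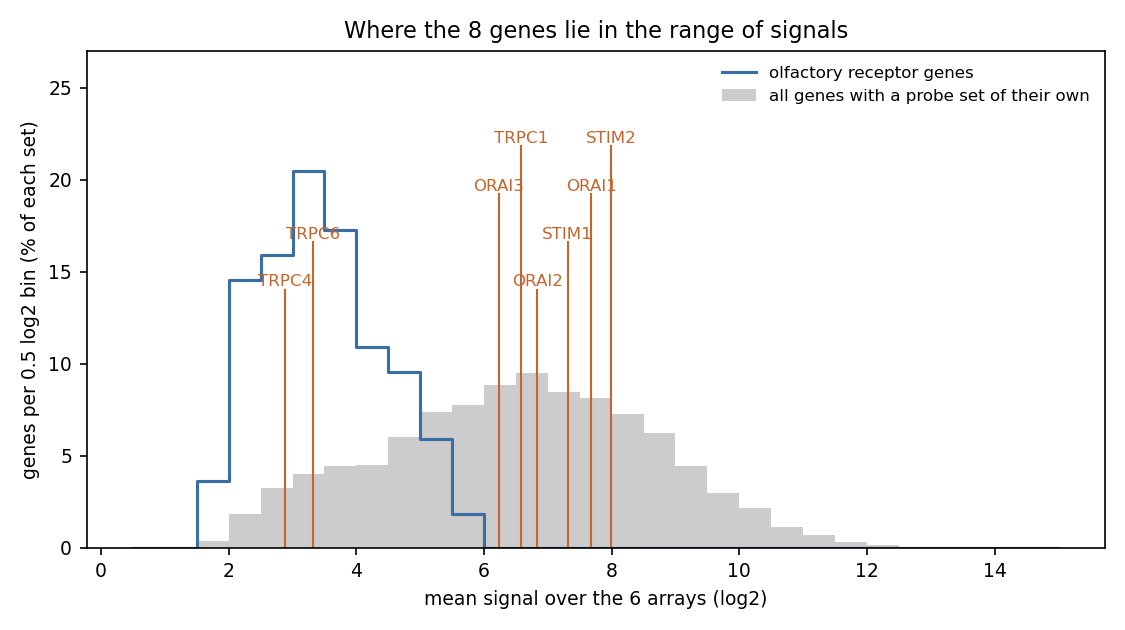
Distribution of mean log2 signal over the 6 arrays (horizontal axis) as the percentage of genes per bin of 0.5 (vertical axis), for all 14232 genes (grey) and the 220 olfactory receptor genes (blue line), with the 8 genes marked by vertical lines of arbitrary height. TRPC4 and TRPC6 sit inside the olfactory receptor range and the other 6 to its right.

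The labelled cell type was checked against lineage markers. Among oligodendrocyte genes, CNP, an early myelin enzyme, measured 8.83 ± 0.10 in control cells (log2, SD, n = 3), while OLIG2 (5.40 ± 0.01) and MBP (5.26 ± 0.15) lay within the range of the olfactory receptor genes and SOX10 (6.00 ± 0.17) just above it. The muscle regulator MYOD1 measured 9.72 ± 0.11 and the muscle acetylcholine receptor subunit CHRNA1 11.67 ± 0.11, while the muscle regulators MYF5 (3.60 ± 0.29) and MYF6 (5.08 ± 0.22) lay within the olfactory receptor range as well. Averaged over 9 measured muscle markers, array means ran from 8.19 to 8.22 in control and from 8.14 to 8.20 in treated cells. Of these 9, 2 had groups that did not overlap, both lower in treated cells: the muscle filament gene DES, with a difference of -0.27 (95% interval -0.47 to -0.06; limma, unadjusted p = 0.019, adjusted p = 0.998), and the muscle cadherin gene CDH15, with -0.16 (95% interval -0.36 to 0.04). Of all 14232 genes, 7.89% had groups that did not overlap and 5.3% in that direction. In limma, 1.11% were lower at an unadjusted p under 0.05. The part of muscle markers in the differences given below was not tested. The 9 measured oligodendrocyte markers gave 5.80 to 5.90 and 5.78 to 6.00. Array medians over all probe sets ran from 6.36 to 6.47, and control array 1 had the highest.

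Across the 8 genes, treated minus control differences ran from -0.24 for STIM1 to 0.12 for TRPC6 on the log2 scale, and none passed the test. In limma over all 22011 probe sets, 0 had a Benjamini-Hochberg adjusted p under 0.05 (0% called), and each of the 8 genes had an adjusted p of 0.998. At an unadjusted p under 0.05 there was 1 of the 8, STIM1, against a background of 2.07% of the 14232 genes. That background is below the share of 0.05 that such a threshold gives when nothing differs. The groups did not overlap for 2 of the 8, STIM1 and STIM2, both lower in treated cells. Of all genes, 7.89% had groups that did not overlap and 5.3% in that direction. When nothing differs, groups of 3 and 3 arrays are apart, in either direction, for a share of 0.1. Differences were below 0 for 7 of the 8 genes with a median of -0.06, and below 0 for 62.6% of all genes, whose median was -0.03. Under the 3 other scalings of the arrays (median centring, quantile normalization and cyclic loess of the deposited values) 6 of the 8 were below 0, ORAI2 having changed sign. All 8 of the 95% intervals stayed inside a 1.5-fold change up or down, as did those of 91.7% of all genes.

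**Figure D2:**
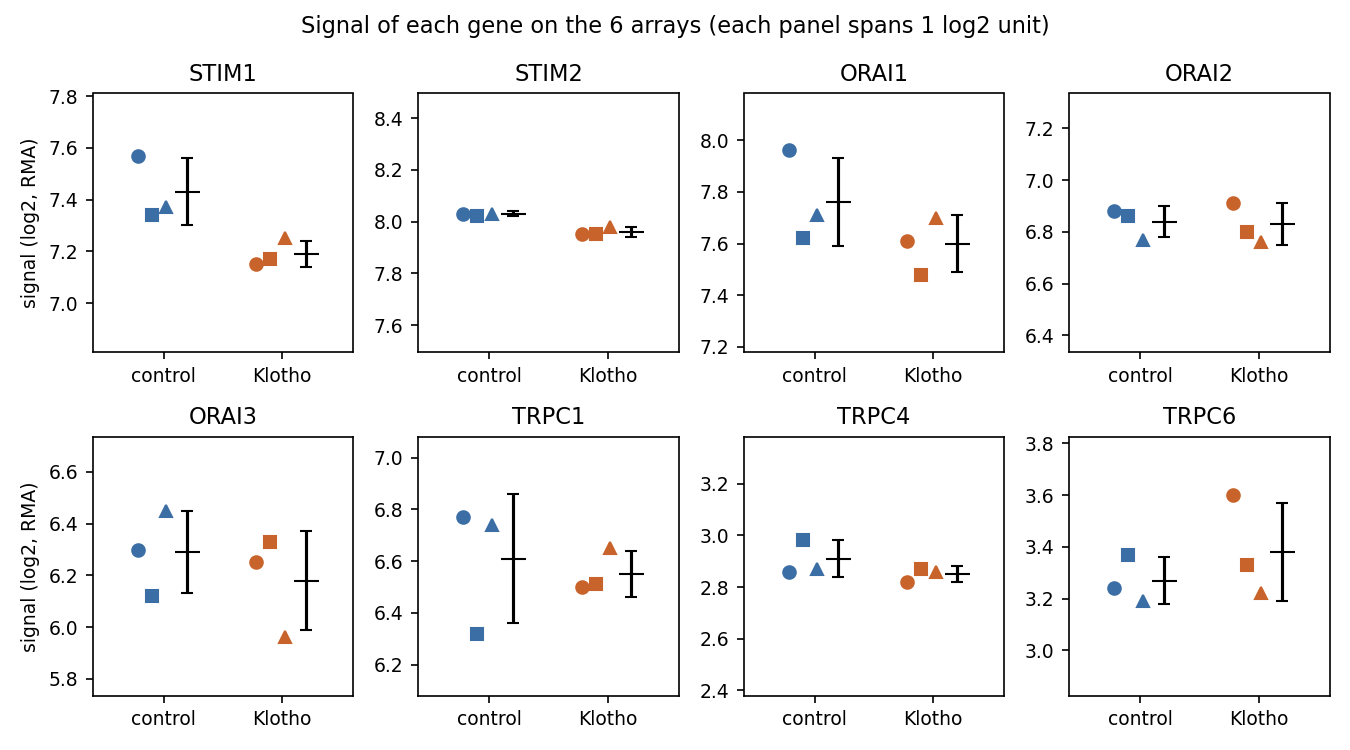
Log2 signal of each gene (vertical axes, each spanning 1 log2 unit) on the 3 control (blue) and 3 Klotho-treated (orange) arrays; circles, squares and triangles are replicates 1, 2 and 3, and black bars the mean ± SD. Only STIM1 and STIM2 have groups that do not overlap in the deposited values, and the STIM2 means differ by -0.07.

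STIM1 encodes the main sensor of store calcium. It measured 7.57, 7.34 and 7.37 on control arrays 1, 2 and 3 and 7.15, 7.17 and 7.25 on treated arrays 1, 2 and 3 (log2). Every treated value was below every control value, and control array 1 stood highest. The means were 7.43 ± 0.13 and 7.19 ± 0.05 (SD, n = 3), a difference of -0.24 (SE 0.09, 95% interval -0.46 to -0.02), or 0.85 times the control level. The unadjusted p in limma was 0.0393, which put STIM1 at rank 205 of the 14232 genes, and the adjusted p was 0.998. Few genes had small p-values (2.07% at an unadjusted p under 0.05 in limma), so this rank does not mark STIM1 out. After median centring of the arrays the groups were still apart (7.51, 7.37 and 7.34 against 7.20, 7.21 and 7.24), with a difference of -0.19 (unadjusted p of 0.0511 in limma). They were apart as well under quantile normalization and cyclic loess, both with -0.17. Without control array 1 the difference was -0.17 (95% interval -0.37 to 0.04; unadjusted p of 0.099 in limma). Leaving out each of the 6 arrays in turn gave STIM1 differences of -0.28 to -0.17. The unadjusted p in limma was then 0.036 to 0.104, and under 0.05 in 1 of the 6 cases.

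STIM2, the sensor that answers smaller losses of store calcium and helps to set resting calcium, varied little. It read 8.03, 8.02 and 8.03 on the control and 7.95, 7.95 and 7.98 on the treated arrays. All treated values lay below all control values. The difference was -0.07 (95% interval -0.23 to 0.10; limma, unadjusted p = 0.358), the interval being set by the variance limma shares across probe sets rather than by the SD of 0.01 and 0.02 within the groups. The separation of the groups was lost under all 3 other scalings, with differences of -0.02 with median centring, -0.0034 with quantile normalization and -0.01 with cyclic loess. Taking STIM1 minus STIM2 within each array, which removes any factor common to an array, gave -0.45, -0.68 and -0.66 in control and -0.80, -0.78 and -0.73 in treated cells. The groups did not overlap on this measure either, with a mean difference of -0.17. It was chosen after the data were examined and carries no test.

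The upstream sequences of both sensors are shown because these were the genes whose groups did not overlap. They are the 250 bases before a transcript start, 5′ to 3′, from RefSeq on GRCh38.p14, with the GC box GGGCGG on either strand in capitals. The STIM1 window is chr11:3855414-3855663 (plus strand), the first of 4 STIM1 windows listed, and others start further upstream. The STIM2 window is chr4:26860591-26860840 (plus strand).
STIM1: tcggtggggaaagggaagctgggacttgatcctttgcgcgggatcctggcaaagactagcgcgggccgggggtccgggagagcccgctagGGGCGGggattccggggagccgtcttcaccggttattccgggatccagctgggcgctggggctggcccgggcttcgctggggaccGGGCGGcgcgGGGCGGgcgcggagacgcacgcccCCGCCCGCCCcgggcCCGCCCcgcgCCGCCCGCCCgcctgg
STIM2: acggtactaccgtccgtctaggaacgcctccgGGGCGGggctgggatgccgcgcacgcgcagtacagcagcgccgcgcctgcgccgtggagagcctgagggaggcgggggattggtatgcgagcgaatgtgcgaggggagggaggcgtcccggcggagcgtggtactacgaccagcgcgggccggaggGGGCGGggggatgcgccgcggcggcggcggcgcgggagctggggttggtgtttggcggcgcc
The STIM1 window held 8 GC boxes, some overlapping, and the STIM2 window 2, while 42.3% of the 27305 windows of this length held at least 1. Both are rich in CpG, with 34 and 38 CpG dinucleotides against a median of 11. A match to these letters is not evidence of binding.

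The ORAI genes encode the channel pore, ORAI1 being the subunit of the classical calcium release-activated channel. ORAI1 read 7.96, 7.62 and 7.71 on the control and 7.61, 7.48 and 7.70 on the treated arrays. The groups overlapped, and control array 1 was again the highest value. Its difference was -0.17 (SE 0.12, 95% interval -0.45 to 0.11; limma, unadjusted p = 0.197), and -0.07 without control array 1. ORAI1 and STIM1 varied together over the 6 arrays (r = 0.88), as a description in which both share the arrays and their scaling. ORAI1 had no entry in the table of upstream sequences.

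ORAI2, which can mix with ORAI1 and dampen its current, read 6.88, 6.86 and 6.77 in control and 6.91, 6.80 and 6.76 in treated cells. The groups covered nearly the same range, and the difference of -0.01 (95% interval -0.20 to 0.19) was 0.04 or 0.05 under the 3 other scalings. A second probe set that pairs ORAI2 with ALKBH4 was not used. ORAI3, a subunit found in mammals only that also forms arachidonate-regulated channels, read 6.30, 6.12 and 6.45 in control and 6.25, 6.33 and 5.96 in treated cells. Its lowest value was that of treated array 3, and the groups overlapped. The ORAI3 difference was -0.11 (95% interval -0.43 to 0.22), and 0.0036 without treated array 3.

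**Figure D3:**
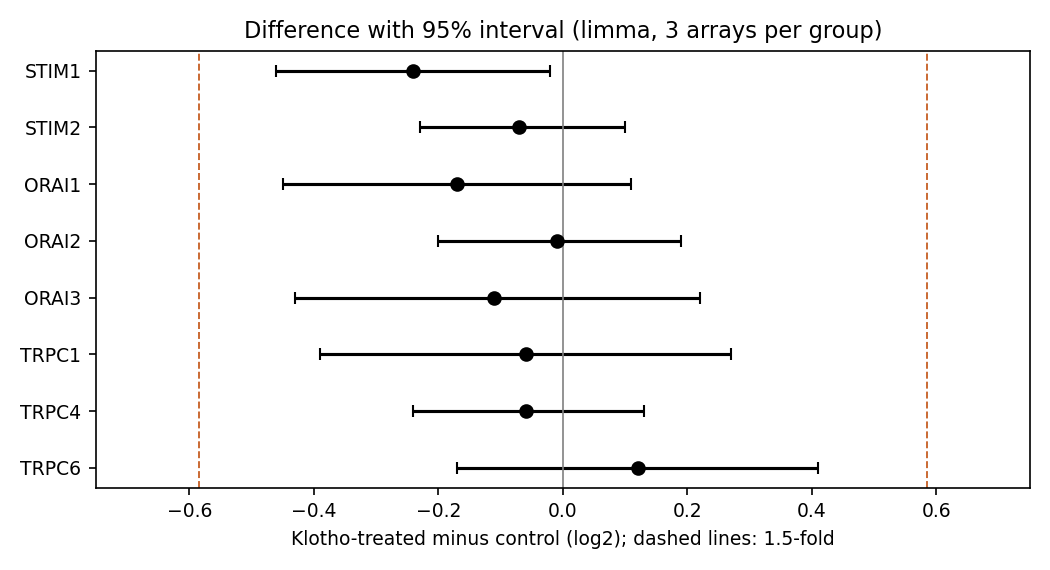
Treated minus control difference of each gene (points, log2, horizontal axis) with its 95% interval from limma (bars, 3 arrays per group); dashed lines mark a 1.5-fold change. All 8 intervals lie inside the dashed lines, and the STIM1 interval (-0.46 to -0.02) is the only one that leaves out 0.

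TRPC1, the channel most often tied to store-operated entry, read 6.77, 6.32 and 6.74 on the control and 6.50, 6.51 and 6.65 on the treated arrays. Control array 2 lay below all treated values and the other control arrays above them. The difference was -0.06 (SE 0.14, 95% interval -0.39 to 0.27), and it was 0.02 without control array 1 and -0.21 without control array 2. TRPC1 had the widest interval of the 8 genes.

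TRPC4, a phospholipase C-gated channel that pairs with TRPC1, read 2.86, 2.98 and 2.87 in control and 2.82, 2.87 and 2.86 in treated cells. The values crossed, with a difference of -0.06 (95% interval -0.24 to 0.13). It was -0.01 with median centring and -0.02 without control array 2, and -0.08 under cyclic loess, where alone among the scalings the groups were apart. TRPC6, a diacylglycerol-gated channel, read 3.24, 3.37 and 3.19 in control and 3.60, 3.33 and 3.22 in treated cells. Treated array 1 stood above the other 5 arrays, and the remaining values overlapped. The TRPC6 difference was 0.12 (95% interval -0.17 to 0.41; limma, unadjusted p = 0.359), the only one of the 8 above 0, and 0.01 without treated array 1. The related TRPC5 and TRPC7 were dim too, at 3.74 ± 0.12 and 3.19 ± 0.15 on the control and 3.68 ± 0.09 and 3.37 ± 0.25 on the treated arrays (log2, SD, n = 3).

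The TRPC6 window differed in composition from those of the sensors and is shown for that contrast, with the core letters GGAAA of NFAT sites on either strand in capitals. It is chr11:101584008-101584257 (minus strand, 250 bases before the start, RefSeq, GRCh38.p14).
TRPC6: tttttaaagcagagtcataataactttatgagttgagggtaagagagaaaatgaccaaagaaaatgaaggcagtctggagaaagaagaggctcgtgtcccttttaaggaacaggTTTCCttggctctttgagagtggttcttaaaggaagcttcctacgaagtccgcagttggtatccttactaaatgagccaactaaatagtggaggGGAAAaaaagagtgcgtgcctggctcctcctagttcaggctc
This window held 4 CpG dinucleotides, 43.2% G and C, no GC box and 2 GGAAA cores, a motif present in 56.0% of all windows. The windows of STIM1, TRPC1 and TRPC4 held 1 GGAAA core each, so that 4 of the 7 genes with a window had it. Of the 7 genes with a window, TRPC6 and ORAI3 were the ones with no GC box. The dim TRPC4 had 3 GC boxes and 17 CpG dinucleotides, and TRPC1 had 2 and 14 in the first of its 2 windows listed. Whether signal goes with the composition of these windows was not tested. None of the 7 held TATAAA, against 11.1% of all windows.

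**Figure D4:**
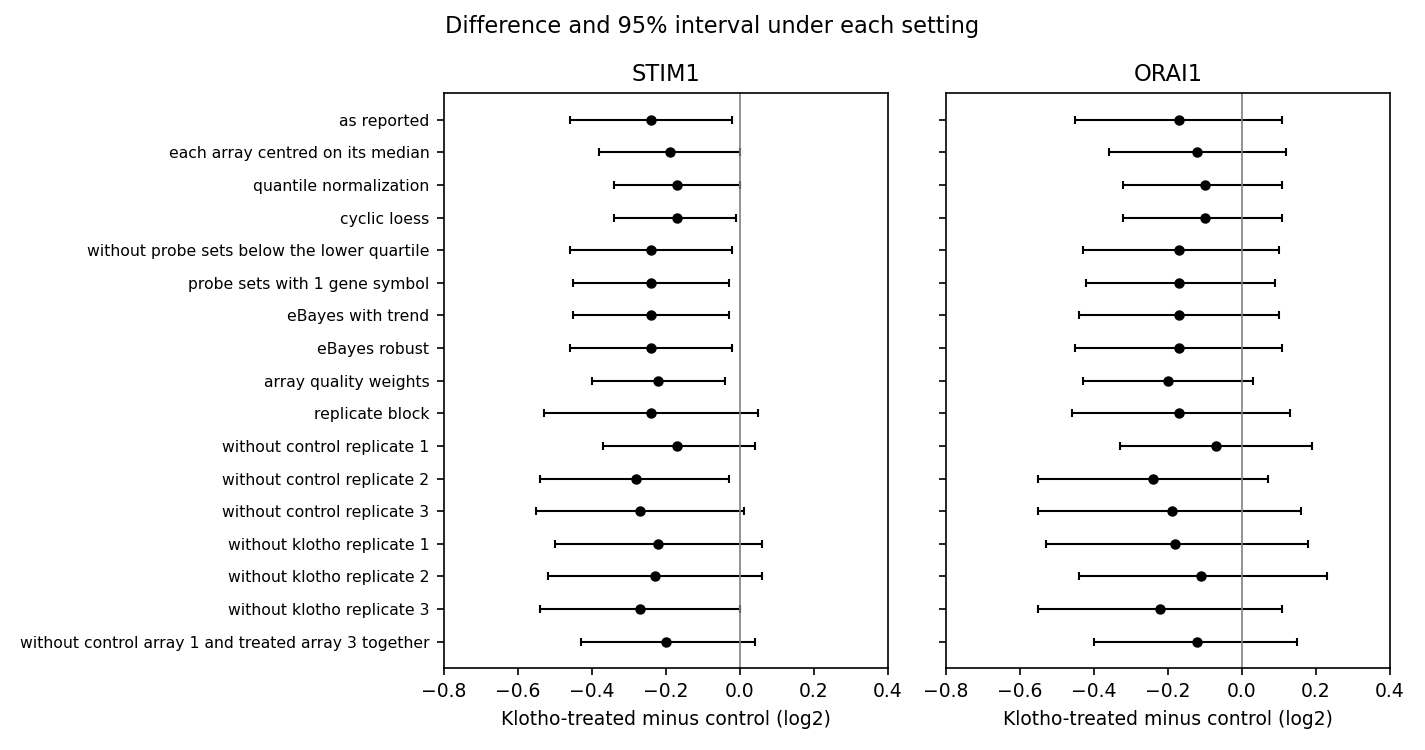
Treated minus control difference (points, log2) with its 95% interval for STIM1 (left) and ORAI1 (right) as reported and under each of 16 other settings (rows). STIM1 differences lie between -0.28 and -0.17 and ORAI1 differences between -0.24 and -0.07, the latter without control replicate 1.

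Other genes of calcium handling were followed through 9 lists with 125 entries, of which 105 had a probe set of their own. Over all 105, 0 passed the adjusted threshold in limma, 2 had an unadjusted p under 0.05 (HOMER3 and CACNB3, both lower), and the groups did not overlap for 8 in the lower and 1 in the higher direction. The background was 1.11% of genes at such a p and lower, and 5.3% and 2.59% for groups apart and lower or higher. The 8 lower ones were HOMER3, ESYT1, PLCG1, ATP2A1, SLC8B1, VDAC3, MCOLN2 and CACNB3. The split of 72 lower and 33 higher moved with the scaling: it was 45 and 60 with median centring, 51 and 54 after quantile normalization, and 58 and 47 under cyclic loess. The median of -0.03 was that of all genes. Splits of single lists below are of the deposited values, in which 62.6% of all genes were lower in treated cells. Intervals lay within a 1.5-fold change for 100 of the 105, the exceptions being AKAP5, MCU, VDAC1, TRPV1 and TRPM7.

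Proteins that bind or tune STIM and ORAI had 15 of 15 genes measured, 9 lower and 6 higher, with a median of -0.02. HOMER3, a scaffold protein of the Homer family, read 7.23, 7.44 and 7.58 on the control and 7.15, 7.17 and 7.04 on the treated arrays. All treated values were lower, with a difference of -0.30 (95% interval -0.56 to -0.03) and an adjusted p of 0.998 in limma. ESYT1, which tethers the endoplasmic reticulum to the plasma membrane, differed by -0.17 and CRACR2A, a cytosolic calcium sensor that stabilises the STIM1 and ORAI1 complex, by -0.13. SARAF, the factor that shuts store-operated entry down, averaged 10.62 ± 0.18 on the control and 10.66 ± 0.05 on the treated arrays (log2, SD, n = 3).

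Among 16 measured genes that empty the store, 13 were lower and 3 higher in the deposited values, with a median of -0.06. The phospholipase gene PLCG1 differed by -0.13, the G protein gene GNA11 by -0.13 and PLCB3 by -0.17. Of the 16 only PLCG1 had groups apart, lower in treated cells as for 5.3% of all genes. The inositol trisphosphate receptor gene ITPR1 measured 7.57 ± 0.04 and 7.51 ± 0.11 and the ryanodine receptor gene RYR3, one of the release channels of muscle and brain, 10.00 ± 0.27 and 10.07 ± 0.01 (log2, SD, n = 3). Pumps and exchangers (11 measured, 9 lower and 2 higher, median -0.02) held the store pump genes ATP2A1 (-0.15) and ATP2A2 (-0.08) and the exchanger gene SLC8A3 (-0.09). ATP2A1, the pump of fast muscle, had groups that did not overlap and a 95% interval of -0.36 to 0.06.

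Calcineurin and NFAT, the phosphatase and transcription factors that respond to lasting calcium entry, had 13 genes measured, 10 lower and 3 higher, with a median of -0.07. The members of smallest p were the scaffold gene AKAP5 (-0.31, 95% interval -0.69 to 0.08), the calcineurin inhibitor gene CABIN1 (-0.13) and NFATC2 (0.09). RCAN1, described as a target of NFAT, averaged 8.46 ± 0.08 on the control and 8.49 ± 0.03 on the treated arrays (log2, SD, n = 3). The 95% interval of its difference ran from -0.16 to 0.22. Its 1 probe set gives 1 value for the gene, and NFAT activity was not measured. Genes of mitochondrial calcium transport, in either direction (9 measured, 8 lower and 1 higher, median -0.05), held the outer-membrane channels VDAC1 (0.26) and VDAC3 (-0.11) and the sodium-calcium exchanger SLC8B1 (-0.10). VDAC1 read 8.40 and 8.37 on treated arrays 1 and 2, and 7.75 on treated array 3, below all controls (7.88 to 7.95). Calcium-binding proteins of the endoplasmic reticulum and Golgi (7 measured, 4 lower and 3 higher, median -0.03) held SDF4 (-0.14), CALU (-0.05) and RCN2 (-0.05).

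Other TRP channels and the voltage-gated calcium channels gave no call either. Among 16 measured TRP channels of other subfamilies, 8 were lower and 8 higher; MCOLN2, a lysosomal channel, differed by -0.20, the heat and capsaicin receptor gene TRPV1 by -0.36 (95% interval -0.89 to 0.16) and MCOLN1 by -0.15. Of the 16 voltage-gated calcium channel genes, 10 were lower and 6 higher. CACNB3, a cytosolic subunit of these channels, read 6.97, 6.88 and 6.93 in control and 6.70, 6.77 and 6.73 in treated cells. All its treated values were lower, with a difference of -0.19 (95% interval -0.37 to -0.02) and an adjusted p of 0.998 in limma. CACNA1F (0.13) and CACNA2D2 (0.08) were next by p.

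**Figure D5:**
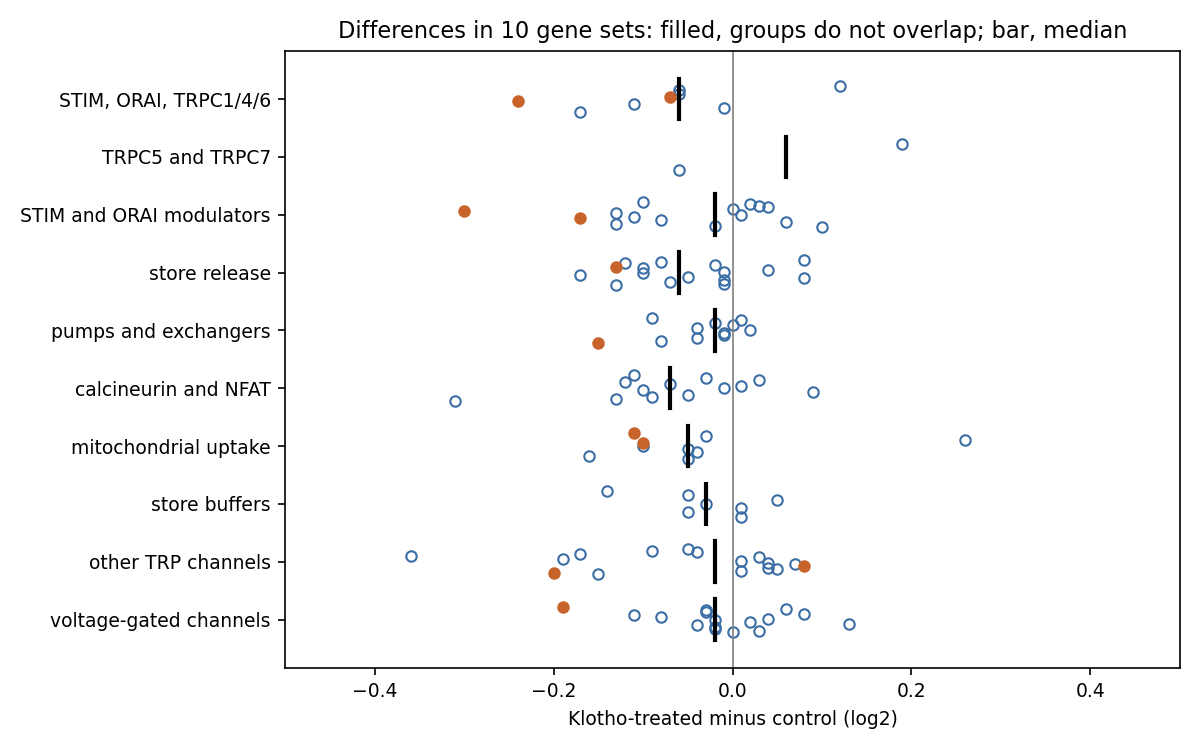
Treated minus control differences (log2, horizontal axis) of the 8 genes and of the genes measured in 9 calcium-handling lists (rows, 1 point per gene); filled points have groups that do not overlap, and black bars are medians. List medians lie between -0.07 and 0.06, and 3 points lie beyond -0.30 or at it: TRPV1, AKAP5 and HOMER3.

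Over the 6 arrays, each of the 8 genes had others with nearly the same pattern, which at this number of arrays is common: from 61 genes for ORAI2 to 425 for TRPC1 had a Pearson r of at least 0.9, of 14231. Closest to STIM1 were CRLS1 (r = 0.992) and PPIF (0.991), and closest to STIM2 were CLDN1 (0.991) and ZNF263 (0.986). ORAI1 was nearest to CAMKK1 (0.999) and PHYHD1 (0.994), ORAI2 to TBX2 (0.990) and CMAHP (0.989), and ORAI3 to CASP12 (0.995) and CD81 (0.988). For the TRPC genes these were YY2 (0.998) and GORAB (0.995) for TRPC1, GBP4 (0.987) and AIFM1 (0.985) for TRPC4, and MT3 (0.991) and SLC6A11 (0.989) for TRPC6. Among the 8 genes themselves, the pairs of highest r were STIM1 with ORAI1 (0.88), STIM1 with STIM2 (0.87) and ORAI2 with TRPC6 (0.77). The lowest were STIM2 with TRPC6 (-0.63) and TRPC1 with TRPC6 (-0.61). These values share the arrays and their scaling and are descriptions only.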

How the data were processed

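Expression was measured in 6 samples, 3 control and 3 Klotho-treated, grouped by the treatment label. The authors deposited 1 table of log2 values, 1 per probe set and array, from exon arrays; the submitters' processing notes name RMA, which corrects background, normalizes by quantiles and summarizes probes. A version, annotation or filter was not given in the sources used here. Array data have no read depth, and precision is limited by the number of arrays. No detection calls or scan dates were used.

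Of 22011 probe sets, 14432 were annotated with 1 gene symbol, 2408 with several and 5171 with none. Where several probe sets carried the same single symbol, the one of highest mean was taken, giving 14232 genes. limma 3.58.1 (R 4.3.3; lmFit, eBayes, 2-sided) was run on the log2 values of all probe sets, with Benjamini-Hochberg adjustment and a threshold of 0.05. It was tested on simulated data first. At that threshold it recovered 19.4% of planted 1.5-fold changes, 64.6% of 2-fold and 92.2% of 4-fold changes, so that small changes would mostly be missed. The simulated noise was independent between probe sets, and changes of all sizes were planted together. Recovery of a small change on the real arrays may therefore be lower. The genes and lists were chosen with earlier results of these data known. List genes named are the 3 of smallest p, plus any with groups apart at an unadjusted p under 0.05, and for each of the 8 genes the 2 of highest Pearson r. SARAF, ITPR1, RYR3, RCAN1, the 5 genes with wide intervals and the marker examples were chosen after their values were seen. Alternatives were other scalings, filters, variance models, array weights, a replicate block and leaving out arrays.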

Additional observations from a re-analysis of the deposited data

How the results depend on the processing

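Under 16 other settings, 0 probe sets passed the adjusted threshold in limma, and the count at an unadjusted p under 0.05, 703 as reported, was 436 to 1644: 1644 with array quality weights, 1200 without treated array 3, 1127 with control array 1 and treated array 3 both left out, 447 among probe sets with 1 gene symbol and 436 without the dim probe sets, the last 2 having fewer probe sets. STIM1 was below 0 in all 16, from -0.28 to -0.17, with an unadjusted p under 0.05 in 7 (range 0.0226 to 0.104; adjusted p 0.655 to 1). STIM2, ORAI1, TRPC4 and TRPC6 kept their direction in every setting run. ORAI2 turned to 0.04 with median centring, 0.05 under quantile and loess scaling alike, 0.01 with array weights and 0.04 when control array 1 and treated array 3 were both left out, where ORAI3 turned to 0.01. Leaving out 1 array at a time gave -0.05 to 0.02 for ORAI2 (0.01 without control array 1, 0.0024 without control array 2, 0.0037 without treated array 2, 0.02 without treated array 3), -0.19 to 0.0036 for ORAI3 (0.0036 without treated array 3) and -0.21 to 0.02 for TRPC1 (0.02 without control array 1, 0.004 without control array 3). The cause of these changes was not tested. With the replicate number as a block the count was 0 and the STIM1 unadjusted p 0.089. Same-numbered arrays deviated from their group means with r of -0.176, 0.064 and -0.139, and arrays of unlike number with r from -0.13 to 0.237. Deviations from means of 3 arrays cannot decide whether the numbers pair the samples, and the labels give no pairing. The filter on dim probe sets removed TRPC4 and TRPC6, and each of the 8 genes had 1 probe set alone, so that other probe sets of a gene could not be tried. Dim signals limit what can be said of TRPC4 and TRPC6.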
